A study of Mus musculus with 18 samples.

Results

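Tumors that grew from H3.3K36M cells were compared with the same cells in culture, in 6 tumor libraries and 2 cell libraries. The comparison covered 14842 of the 20325 genes in the table, those with a normalised read count of 10 or more in at least 2 of these 8 libraries. The cells are C3H10T1/2, a mesenchymal line from C3H mouse embryos with the potential to form cartilage, bone and fat, and they stably express histone H3.3 that carries FLAG and HA tags and a methionine in place of the lysine at position K36. The cultured libraries came from passage 10 to 15. For the tumors, 2000000 H3.3K36M cells in Matrigel were placed under the skin of both flanks of female athymic SCID mice, which were 6 to 8 weeks old, and tumors were taken 5 to 6 weeks later. By the labels all 8 libraries derive from cells that express the tagged mutant histone, which the deposited values do not measure apart from mouse H3.3. The comparison does not separate growth in a mouse from the outgrowth of some of the injected cells. The mutant line is a single line. The labels say neither which mouse a tumor came from nor whether a pair of tumors shared a mouse, nor whether the cell libraries were separate cultures, so the p-values measure the spread between these libraries. The same table also holds 2 libraries each of cells with tagged wild-type H3.3 and of H3.1K36M cells, which are used here as culture levels only, out of 18 libraries in the whole series.

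H3.3K36M is the hallmark mutation of chondroblastoma, a tumor of cartilage-forming cells of bone. The mutant histone blocks the enzymes that methylate lysine 36 of histone H3, and loss of that mark lets the repressive lysine 27 mark of the Polycomb system spread. A tumor grown in a mouse also holds cells of the host: vessels, macrophages and other leukocytes, and tissue that the tumor grows into or that is taken with it. SCID mice lack functional T and B cells but keep macrophages, granulocytes and NK cells. Host and injected cells are both mouse, so their transcripts carry no species difference by which reads could be assigned.

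Depth was 34022137 to 56041798 estimated reads in the cell libraries and 24659432 to 55811835 in the tumors. A gene's value is its estimated read count divided by a factor for the library, called the normalised read count below. It is not divided by gene length, so values of different genes are not ranked. The tumors held 13648 to 14240 genes at 10 or more and the cells 13060 to 13106. Tumor 6 stood apart from the rest. Its median absolute log2 difference to another tumor was 0.377 to 0.466 over 5 pairs, against 0.126 to 0.240 over the 10 pairs among tumors 1 to 5. Results are therefore also given without tumor 6 where that moves them.

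Differences between tumors and cells also followed transcript length. A transcript length was found for 90.5% of the genes tested. In the shortest 10% of them, up to 1374 nucleotides, the median log2 difference was 1.19, with 69.8% of genes higher and 7.22% lower. In the longest 10%, from 6697 nucleotides, it was -1.06, with 15.3% higher and 66.9% lower. Tumors 1 to 5 had medians of 1.19 to 1.33 in the shortest 10% and tumor 6 had 0.676. Wild-type cells and H3.1K36M cells lay between -0.07 and 0.03 of the H3.3K36M cells in all 10 groups of genes by length. What set this trend was not tested. Where the number of a list's genes that rose or fell moved by over 1.5 times after length centring, those counts are also given; in this centring the typical difference of genes of like length is subtracted in each library.

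**Figure D1:**
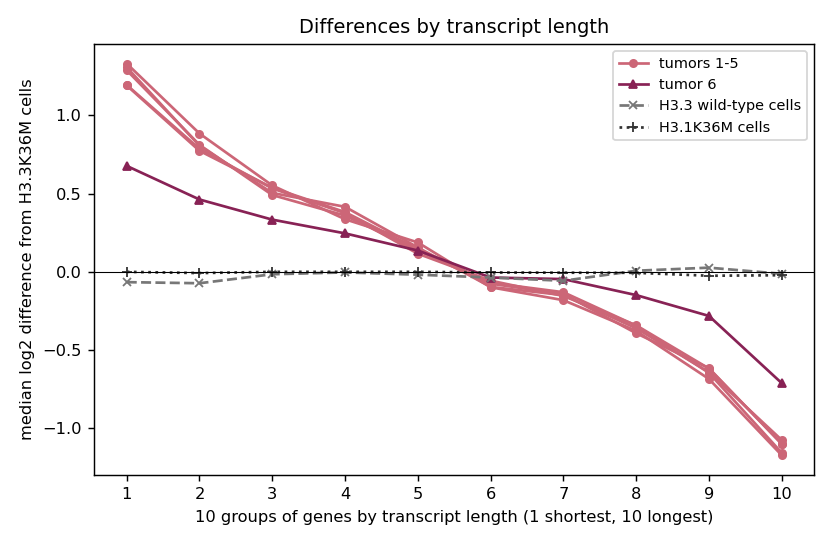
Median log2 difference from cultured H3.3K36M cells (y axis) for 10 equal groups of genes by transcript length (x axis, shortest to longest), with 1 line for each tumor and for the wild-type and H3.1K36M cells. All 6 tumor lines fall from left to right, tumor 6 least steeply, from 0.676 to -0.71, while both lines of cultured cells stay near 0.

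Most genes differed between the tumors and the cells. Of the 14842 genes tested, 11163 passed an adjusted p of 0.05 (75.2%, limma with Benjamini-Hochberg adjustment), 6086 of them higher in tumors (41%) and 5077 lower (34.2%). At least 2-fold differences numbered 3930 higher (26.5%) and 3067 lower (20.7%), and differences of at least 16-fold numbered 1088 higher and 250 lower. All 6 tumors lay above both cell libraries for 6267 genes (42.2%) and below them for 5317 (35.8%). Of the genes tested, 1665 reached 10 in tumors and in no cell library and 283 in cells and in no tumor, and such genes entered the test only through the group where they were high. Just outside the limit, 392 genes reached 10 in 1 library and were not tested, among them the myeloid gene Mpo at 14.9 in tumor 6, and just inside it 505 did so in exactly 2. Differences are on the scale of log2(value + 1), given ± SE, and understate the change of genes with low values. The median log2 difference over all genes tested was 0.14. The split between the directions depends on the scaling. After quantile normalisation 45.3% of the called genes were higher, against 54.5% with the deposited scaling, and the median of all genes moved by -0.26. With total scaling that leaves out the red cell genes, the median moved by -0.19. That setting also replaces the deposited scaling by the library total. In tumor 4, where they were highest, the red cell genes summed to 19507 of a total of 40873100. The median SD between tumors was 0.242 on the log2 scale, and the cell libraries differed from each other by a median of 0.0786. With a background this high, a list is described below by its counts of higher and lower members against 41% and 34.2%.

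Macrophage transcripts were among the largest rises. All 22 macrophage markers were higher, with a list median log2 difference of 10.31, and their summed normalised read count was 584 and 577 in the cells and 346985 to 491110.0 (median 409092) in the tumors. C1qa, C1qb and C1qc, the 3 chains of complement C1q, which tissue macrophages make, were listed at 0 in both cell libraries. C1qa lay at 46784 to 94129 (median 76966) across the tumors, C1qb at 38656 to 68806 (median 55542) and C1qc at 37729 to 63006 (median 53083). All 6 tumors held all 3 genes at high values, and none of them overlapped the cells. Ctss, a protease of antigen-presenting cells, went from 3.47 and 0.949 to between 24504 and 29770.4 (median 27764), and Tyrobp, an adaptor of myeloid receptors, from 0 and 0.949 to between 8379.6 and 14884 (median 12409.7). Csf1r, the receptor on which macrophages depend, stood at 16.8 and 15.2 in the cells and 17798 to 24779 (median 20151) in the tumors (log2 difference 10.26 ± 0.14). Emr1, which encodes the macrophage antigen F4/80, was at 0.578 and 2.85 in the cells and 4048 to 7589 (median 4713) in the tumors, with tumor 6 highest. In these bulk libraries a larger share of such cells and more RNA per cell cannot be told apart.

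Leukocyte genes shared by many blood cell types moved the same way, with 12 of 12 higher. Ptprc, the leukocyte antigen CD45, was at 4.62 and 6.64 in the cells, while the 6 tumors in order held 2842, 2712, 2708, 2418, 2966 and 5592, tumor 6 again highest. Laptm5, a lysosomal protein of blood cells, went from 2.31 and 5.70 to between 21254 and 28609.7 (median 25202; log2 difference 12.36 ± 0.23), and Cd52 and Coro1a, other leukocyte genes, had log2 differences of 11.66 and 8.60. The H3.1K36M cell libraries also held low values of some of these genes, such as 32.7 for C1qa on average, where wild-type cells were listed at 0.

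Dendritic cell and MHC class II genes were higher for 13 of 15 and lower for none. H2-Ab1, a chain of the class II molecule that presents antigen to helper T cells, went from 7.15 and 4.75 to between 8176 and 17743 (median 11802), and H2-Aa and H2-Eb1, further class II chains, had log2 differences of 10.54 and 9.75. Itgax, the integrin CD11c of dendritic cells and macrophages, was at 6.26 and 1.18 in the cells and 729 to 1954 (median 1204) in the tumors.

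All 12 NK cell markers were higher, their summed value rising from 24.4 and 23.3 to between 4309.8 and 11588 (median 6189). Ncr1, the NK receptor NKp46, was listed at 0 in both cell libraries and stood at 256, 344, 254, 187, 344 and 545 in tumors 1 to 6. Gzmb, a granzyme that cytotoxic cells inject into their targets, was at 1.16 and 0 in the cells and 957 to 3827 (median 1281) in the tumors, and Prf1, the pore protein perforin, at 2.41 and 1.79 and 565 to 2984 (median 975). Tumor 6 held the highest value of all 3. Gzmd, Gzmf and Gzmg, further granzymes, were listed at 0 in both cell libraries and had tumor medians of 10216, 8469 and 9768; these 3 genes are near copies of each other, so how reads were divided among them is uncertain.

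T and B cell genes were unevenly present. T cell markers were higher for 6 of 9 tested and lower for 2 (1 without cell library 1 and 1 without cell library 2). Cd3e, Themis and Cd5, T cell genes, stayed under 10 in all 8 libraries, while Cd3g reached 184 to 388 (median 241) and Cd4 431 to 1385 (median 745) in tumors from 3.47 and 1.90 and 0.578 and 0 in the cells. Cd8a, the co-receptor of cytotoxic T cells, was lower, at 20.6 and 25.4 in the cells and 8.66 to 12.7 (median 10.2) in the tumors (adjusted p = 0.011; without cell library 1 it did not pass, adjusted p = 0.061, nor without cell library 2, 0.14). Cd247, a signalling chain of the T cell receptor, was also lower (log2 difference -1.89). Among B cell genes, Ms4a1, Pax5, Cr2, Fcer2a and Faim3 were under 10 in all 8 libraries, and the 4 that were tested were higher. Cd79b, a signalling chain of the B cell receptor, went from 0 and 0.949 to between 251 and 474 (median 425). Its partner Cd79a was at 279.6, 43.4, 16.3, 25.3, 46.2 and 863 in tumors 1 to 6, highest in tumor 6 (adjusted p = 0.02, lost without cell library 1 or 2, 0.09 and 0.084).

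Neutrophil markers were higher for 5 of 6 tested and lower for none. S100a8 and S100a9, which together form calprotectin, stood at 78.9 to 310.4 (median 119) and 120.2 to 308 (median 157) in the tumors, highest in tumor 1, against means of 0.578 and 0 in the cells. Ngp, Retnlg, Camp and Elane, granule genes made in the marrow, were under 10 in every library. Mast cell genes were higher for 7 of 8 and lower for 1. Mcpt4, a chymase of connective tissue mast cells, was listed at 0 in the cells and at 1828, 605, 985, 351, 1685 and 121 in tumors 1 to 6, lowest in tumor 6. Cpa3, the mast cell carboxypeptidase, went from 0 and 0.949 to between 110.1 and 772 (median 278). Hdc, which makes histamine, went the other way, from 622 and 692 to between 110.3 and 388 (median 226; log2 difference -1.58 ± 0.37). Ms4a2, the beta chain of the IgE receptor, stayed under 10 in all 8 libraries.

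Genes of vessel lining rose. Endothelial markers were higher for 20 of 22 tested and lower for 1. Pecam1, an adhesion protein of endothelial junctions, went from 2.31 and 6.64 to between 1867 and 3099.8 (median 2524), and Tie1, an endothelial receptor, from 2.32 and 0 to between 887 and 1524 (median 1142). Cldn5, a tight junction protein of vessels, was listed at 0 in the cells and at 397 to 1128 (median 741) in the tumors. Cdh5, the cadherin of endothelial junctions, was at 74.0 and 61.7 in the cells and at 10731, 8941, 6722, 5019.6, 6371 and 22894 in tumors 1 to 6, with tumor 6 highest. Flt1, a VEGF receptor, was the exception, with 2282 and 2239 in the cells and 620.2 to 1056 (median 767) in the tumors (log2 difference -1.51 ± 0.19). Prox1, the regulator of lymphatic endothelium, was under 10 throughout.

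Pericyte markers, genes of the cells that wrap small vessels, split into 7 higher and 3 lower of 10, or 7 and 1 after length centring, and their summed value was 42403 and 40042 in the cells and 24418 to 31866 (median 30803) in the tumors, lower in all 6. Kcnj8 and Abcc9, subunits of a potassium channel of pericytes, went from 11.0 and 9.49 to between 213 and 328 (median 276) and from 9.58 and 7.94 to between 159 and 218 (median 196). Rgs5, another pericyte marker, was at 16.2 and 15.2 in the cells and 51.6 to 279 (median 105) in the tumors. The cultured cells held Notch3 at 4768 and 4338 and Cspg4 at 18100.1 and 16715, and the tumors held less, 885 to 1515 (median 1298) and 7871 to 12245 (median 10964). After length centring the log2 difference of Notch3 went from -1.92 to -0.83, and that of Cspg4 changed sign, from -0.76 to 0.33.

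Red cell genes were higher for 5 of 7 and lower for none, and platelet genes for 2 of 6, or 4 without tumor 6, and lower for none. Hbb-b1, a beta globin, was listed at 0 in both cell libraries and at 951 to 2436 (median 1369.7) in the tumors, and Alas2, the heme synthesis enzyme of red cells, went from 8.09 and 2.85 to between 98.5 and 225 (median 138). Hba-a1, an alpha globin, was at 876 and 833 even in the cells and at 5797 to 14809 (median 7413) in the tumors; globin genes have near copies, so the division of reads among them is uncertain. Pf4, a chemokine of platelets that macrophages can also make, went from 2.31 and 1.90 to between 1952 and 6659 (median 4871), while Ppbp and Itga2b, platelet genes as well, did not pass (log2 differences -0.26 and 0.16, adjusted p = 0.67 and 0.39). Gp9, another platelet gene, was under 10 in all 8 libraries.

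**Figure D2:**
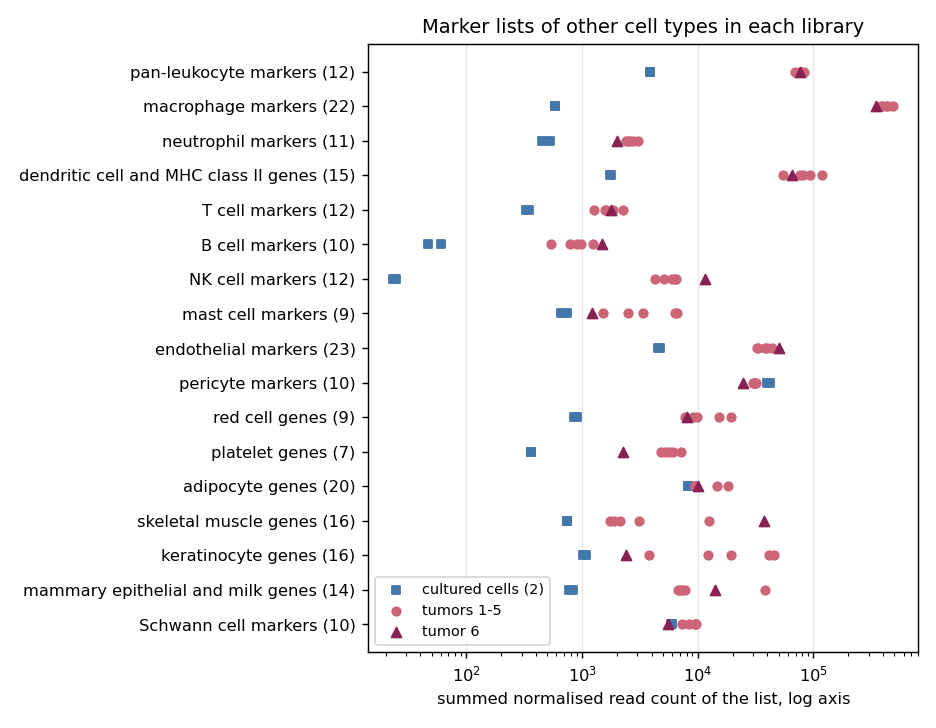
Summed normalised read count (x axis, log scale) of 17 marker lists of other cell types, with the number of summed genes in brackets, in the 2 cell libraries (squares), tumors 1 to 5 (circles) and tumor 6 (triangle). For macrophage markers all 6 tumors lie between 346985 and 491110.0 and the cells at 584 and 577; pericyte markers are the 1 list of the 17 whose tumors all lie below the cells.

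Other tissues appeared unevenly. Skeletal muscle genes were higher for 12 of 16, but their summed value was 2144, 3085, 1877, 1728, 12449.9 and 37048 in tumors 1 to 6, against 734 and 737 in the cells, so that tumors 5 and 6 held most of it. Ckm, the creatine kinase of muscle, was at 94.5, 99.5, 70.7, 58.7, 1209.5 and 3705 in tumors 1 to 6 and 1.73 and 0.949 in the cells, and Myh4, a fast muscle myosin, at 24.4, 59.7, 13.6, 15.2, 1416 and 3934 and 0.572 and 0. Without tumor 6 the log2 difference of Ckm was 5.90 against 6.69 with it, and that of Myh4 5.46 against 6.49; Myh4 did not pass when cell library 1 or 2 was left out (adjusted p = 0.075 and 0.10). Acta1, skeletal muscle actin, did not pass (log2 difference 1.27, adjusted p = 0.32).

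Keratinocyte genes were higher for 8 of 16 and lower for none. The count of higher members was 10 without tumor 4 or 6 and 5 without tumor 1, 2, 3 or 5. It was 3 with a pseudocount of 10 and 4 after quantile normalisation, where 1 was lower. Krt5, a keratin of basal epidermis, was at 1.73 and 0 in the cells and at 8880.4, 3090.03, 5092, 58.7, 10274 and 21.8 in tumors 1 to 6, high in 4 tumors and low in tumors 4 and 6. Lgals7, a galectin of skin, was at 30.1 and 37.0 in the cells and 1822 to 8538 (median 3554) in the tumors, and Krt1, a keratin of the upper epidermis, at 2211, 143, 605, 12.1, 2001 and 3.44 in tumors 1 to 6 and 0 in the cells. The call of Krt1 (adjusted p = 0.015) was lost without cell library 1 or 2 (0.073 and 0.075). Krt14, the partner of Krt5, passed by little (adjusted p = 0.045) and did not pass without cell library 1 or 2 (0.14 and 0.15) or without tumor 1, 2, 3 or 5 (0.07, 0.079, 0.077 and 0.074).

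Milk and mammary epithelial genes were higher for 5 of 13 and lower for 1, with 3 higher without cell library 1 or 2 and 3 higher after length centring. Csn1s1, a casein, was listed at 0 in both cell libraries and at 7.38, 0.904, 375, 3.04, 5004 and 1186 in tumors 1 to 6, and Wap, whey acidic protein, at 0 in the cells and at 0, 0, 0, 1.01, 2829 and 161. These values lay almost wholly in tumors 5 and 6, with tumor 3 next for Csn1s1, and neither gene passed the test (adjusted p = 0.078 and 0.34). Wap was chosen after its values were seen. Epcam, an epithelial adhesion protein, was higher, from 0 to between 11.1 and 293 (median 95.0), whereas Cdh1, epithelial cadherin, fell from 733 and 795 to between 87.0 and 348 (median 202). Trf, transferrin, which macrophages and other cells also make, was at 5.20 and 1.90 in the cells and 5459 to 12081 (median 6970.4) in the tumors, with tumor 5 highest.

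Fat cell genes were higher for 12 of 20 and lower for 2. Cfd, the fat cell protease adipsin, was listed at 0 in the cells and at 295, 387, 2088, 38.5, 2840.5 and 486 in tumors 1 to 6, and Adipoq, the hormone adiponectin, at 1.16 and 0.949 in the cells and 36.2, 48.8, 314, 7.08, 430.1 and 90.6 in the tumors. Tumors 3 and 5 were highest for both. Pparg, the regulator of fat cell identity, was lower in the tumors, 139.6 to 228 (median 181) against 373 and 422, and Plin4, a lipid droplet protein, fell from 5489 and 5533 to between 884 and 1967 (median 1512). Of Schwann cell markers 5 of 9 were higher and 2 lower, or 1 lower without cell library 1 or 2 and 1 lower after length centring. Sox10, the regulator of Schwann cells, was listed at 0 in the cells and at 4.05 to 56.3 (median 23.2) in the tumors, while Cdh19, a cadherin of Schwann cell precursors, went from 54.3 and 52.2 to between 6.88 and 16.1 (median 11.8). Gfra3 was under 10 in all 8 libraries, as were the Y-linked genes Kdm5d, Eif2s3y, Ddx3y and Uty.

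**Figure D3:**
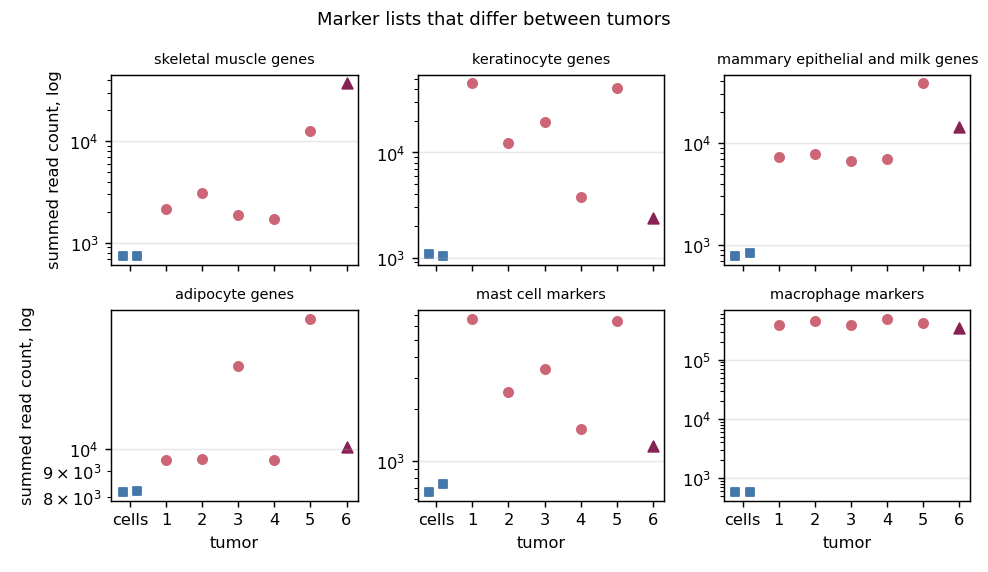
Summed normalised read count (y axis, log scale, own range in each panel) of 6 marker lists in the 2 cell libraries (squares) and in tumors 1 to 6 (x axis; tumor 6 as a triangle). Skeletal muscle genes reach 37048 in tumor 6 and milk genes 38466 in tumor 5, while macrophage markers vary little between the tumors.

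The 3930 genes that rose by 2-fold or more include 1118 (28.4%) that were under 10 in all 6 cultured libraries of the table, wild-type and H3.1K36M cells included. A mean of 100 or more in the tumors was reached by 425 of them, and 85 belong to the lists of other cell types. The others of the 1118 are in none of those lists, so which cells made them was not tested. Among the 12 largest rises by the naming rule, Fcrls, Ms4a7 and Ly86 join the complement and granzyme genes above; all 3 were listed at 0 in both cell libraries and had tumor medians of 8355, 6081 and 5646. Fcer1g, the shared gamma chain of Fc receptors, completes them, at 0.578 and 0.949 in the cells and 8755 to 14541 (median 12320.1) in the tumors.

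The 12 largest falls by the naming rule were of genes that the cultured cells expressed. Lox, the lysyl oxidase that crosslinks collagen and elastin, fell from 90774 and 88803 to 317, 339.7, 562, 499, 346 and 709 in tumors 1 to 6 (log2 difference -7.66 ± 0.29, adjusted p = 2.4e-08). Every tumor lay far below both cell libraries. Slit2, a secreted guidance ligand, went from 10984 and 10737 to between 34.4 and 105 (median 57.9), and Smoc2, a secreted matrix protein that binds calcium, from 17261 and 16692 to between 16.2 and 198 (median 78.3). Tnmd, tenomodulin of tendon, went from 1903 and 2022 to between 1.01 and 11.5 (median 4.15). Hs6st2, a heparan sulfate sulfotransferase, went from 3506 and 3589.9 to between 1.34 and 14.9 (median 6.32), and Slc1a3, a glutamate transporter, from 3810.5 and 3974 to between 3.04 and 37.5 (median 15.3). Pcdh11x, Adamts6, Apob and Crym fell from means of 509.6, 1502, 238 and 324 to medians of 1.40, 8.40, 0 and 1.87. Tgoln2 was at 706 and 695 in the cells and listed at 0 in all 6 tumors, which is uncertain because Tgoln1 is a near copy of it.

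Interferon-stimulated genes rose almost as a block, 30 of 31 higher and none lower, with a median log2 difference of 4.94. These genes are switched on by type I or type II interferon. Irf7, a transcription factor that amplifies the response, went from 74.0 and 73.1 to 19046, 20616, 13961, 12457, 19364 and 18982 in tumors 1 to 6 (log2 difference 7.84 ± 0.19, adjusted p = 1.3e-09). Rsad2, the antiviral enzyme viperin, went from 4.63 and 3.80 to between 505 and 1293 (median 811), and Zbp1, a sensor of unusual nucleic acids, from 29.5 and 28.5 to between 3829 and 5215 (median 4447). Cxcl10, a chemokine that interferon induces, was at 4.62 and 7.59 in the cells and 964 to 1734 (median 1271) in the tumors. No tumor overlapped the cells for these 4 genes. Ifit2, another interferon target, was the member that did not pass (log2 difference 0.60, adjusted p = 0.063). Without tumor 6 it passed (log2 difference 0.46, adjusted p = 0.024), and all 31 were higher.

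MHC class I and antigen processing genes were higher for 16 of 17 and lower for none (median 2.52), with 1 lower without tumor 6. Psmb8 and Psmb9, subunits of the immunoproteasome, went from 69.4 and 63.6 to between 12947 and 18170.0 (median 16874) and from 193 and 189 to between 6544 and 9642 (median 8622). Tap1, a chain of the transporter that brings peptides to class I molecules, went from 669 and 635 to between 9227 and 11774 (median 11092), and H2-D1, a class I heavy chain, from 7356 and 7103 to between 108038 and 126980.0 (median 123041). Macrophage markers, as given above, rose in the same tumors, at 346985 to 491110.0 against 584 and 577 in the cells, with all 22 markers higher; their part in the interferon and class I genes, and in the chemokine, cytokine and complement genes that follow, was not tested.

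Chemokines were higher for 19 of 23 and lower for 4, or 2 lower without cell library 1 or 2. Ccl12 and Ccl8, which attract monocytes, stood at 3561 to 6169.9 (median 5116) and 3996 to 10983 (median 7786) in the tumors, with Ccl12 listed at 0 and Ccl8 at 13.9 and 6.64 in the cells. Cxcl14 and Ccl4 were also listed at 0 in both cell libraries and reached 773 to 1873 (median 1235) and 387 to 609 (median 492). The largest falls of the list were those of Cxcl5, a neutrophil attractant, from 750.4 and 800.2 to between 2.01 and 29.9 (median 5.53), and Cxcl12, the stromal ligand of Cxcr4, from 31237 and 31748 to 211, 331, 589, 185, 701 and 449.6 in tumors 1 to 6 (log2 difference -6.42 ± 0.48). All 6 tumors lay below the cells for both.

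Cytokines and growth factors for leukocytes were higher for 13 of 19 and lower for 2. Tnf and Osm, inflammatory cytokines, were listed at 0 in the cells and at 184 to 399.8 (median 335) and 198 to 279.8 (median 213) in the tumors, and Il1b went from 0 and 0.949 to between 286 and 2043 (median 522), with tumor 6 highest. Il34, which like Csf1 activates the macrophage receptor Csf1r, rose from 43.9 and 46.5 to between 1861 and 3469 (median 2876). Kitl, the growth factor of mast cells and blood progenitors, fell from 2368 and 2577 to between 226 and 399 (median 295), and Il1rn, the natural blocker of the interleukin 1 receptor, from 1381 and 1396 to between 391 and 722 (median 598). Complement genes were higher for 10 of 15 and lower for 5, or 3 lower without cell library 1 or 2 or without tumor 1, 2, 3 or 4. The receptors C5ar1 and C3ar1 stood at 2304 to 3478 (median 2581) and 6285 to 7859.5 (median 7035) in the tumors, against 0 and a mean of 24.0 in the cells. Cfb, factor B of the alternative pathway, went from 85.8 and 65.6 to between 9302 and 14515 (median 12905), while C1s, a protease of the C1 complex, went from 6480.2 and 6749 to between 480.1 and 2418 (median 843).

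Hypoxia response genes were higher for 12 of 22 and lower for 1, with a median log2 difference of 1.03. When oxygen is short, the HIF factors escape destruction and bind genes that carry a short core, ACGTG, near their start. Egln3, an oxygen sensor that marks HIF for destruction and is itself induced by it, was listed at 0 in both cell libraries and at 280.3, 112, 136, 196, 111 and 123 in tumors 1 to 6. Car9, a carbonic anhydrase of the cell surface, was at 91.2 and 91.3 in the cells and 3852, 3925, 4479, 4726, 1099.8 and 9342 in the tumors (log2 difference 5.39 ± 0.61, adjusted p = 4.2e-05), and Ankrd37, a HIF target, at 83.2 and 85.4 and 1052, 1124, 1515, 1483, 418 and 1090.2. Car9 was lowest in tumor 5 and highest in tumor 6, and even tumor 5 lay above the cells. Slc2a1, the glucose transporter GLUT1, went from 1687 and 1654 to 12136, 11501, 12487, 14535, 4344 and 12842, lowest in tumor 5, and Vegfa from 2844 and 2636 to between 3759.9 and 7498 (median 6727); these 2 were chosen after their values were seen. The member that was lower was Lox, whose values are given above. After length centring 13 of the 22 were higher and 1 lower, and without tumor 6 2 were lower.

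The starts of the 3 higher members named by rule are shown because ACGTG (searched on both strands, so also as CACGT) lies in each. The start of Lox, the lower member, is not shown. The windows run from 250 bases before to 50 after the gene start in RefSeq on the GRCm38.p6 build, which is not the mm9 build of the expression table, and capitals mark the matches. They are the minus strand of chr12:54203825-54204124 for Egln3, the plus strand of chr4:43506776-43507075 for Car9 and the minus strand of chr8:45999801-46000100 for Ankrd37.
Egln3: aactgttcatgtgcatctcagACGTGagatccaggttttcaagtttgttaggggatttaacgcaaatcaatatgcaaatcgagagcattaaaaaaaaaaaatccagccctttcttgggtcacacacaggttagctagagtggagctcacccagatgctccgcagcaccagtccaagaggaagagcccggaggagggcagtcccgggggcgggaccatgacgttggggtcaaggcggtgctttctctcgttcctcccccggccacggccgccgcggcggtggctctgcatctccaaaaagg
Car9: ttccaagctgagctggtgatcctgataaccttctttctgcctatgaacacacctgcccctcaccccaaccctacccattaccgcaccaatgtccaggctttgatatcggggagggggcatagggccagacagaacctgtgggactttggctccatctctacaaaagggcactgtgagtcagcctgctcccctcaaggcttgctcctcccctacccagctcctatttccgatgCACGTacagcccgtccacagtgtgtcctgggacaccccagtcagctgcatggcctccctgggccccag
Ankrd37: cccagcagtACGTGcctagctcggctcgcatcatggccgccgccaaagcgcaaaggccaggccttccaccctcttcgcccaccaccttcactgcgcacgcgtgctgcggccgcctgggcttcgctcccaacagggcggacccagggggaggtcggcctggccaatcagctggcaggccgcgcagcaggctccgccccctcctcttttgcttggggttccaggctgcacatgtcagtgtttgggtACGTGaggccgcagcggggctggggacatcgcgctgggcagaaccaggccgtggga
Egln3 and Car9 had 1 match each and Ankrd37 had 2. Of the 17 tested hypoxia genes with a window, 12 held the core (70.6%), and of the 11 higher ones 10 (90.9%), against 27.8% of the 10457 tested genes with a window and 21.8% of all 27025 windows. A match describes the letters and is no evidence of binding, and the members were chosen for the list as HIF targets.

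Glycolysis genes were higher for 14 of 20 and lower for 3 (median 0.84); without cell library 2 they were higher for 9, without cell library 1 or 2 lower for 1, and after length centring lower for 1. Slc16a3, the lactate exporter MCT4, went from 39.3 and 49.4 to 1339, 1598, 1674, 1934, 609 and 1188 in tumors 1 to 6, and Pfkfb4, which makes the activator of phosphofructokinase, from 546 and 580.0 to between 1804 and 2688 (median 2466). Aldoc, an aldolase, went from 23.1 and 16.1 to between 116 and 349 (median 122), highest in tumor 6. Ldhb, the form of lactate dehydrogenase typical of oxidative tissue, fell from 531 and 513 to between 248 and 362 (median 328). Pfkp, a phosphofructokinase, was lower as deposited, with a log2 difference of -0.68, and higher after length centring, with 0.42; the call was also lost without cell library 1 or 2 (adjusted p = 0.086 and 0.058).

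Ligands that guide vessel growth were lower for 12 of 20 and higher for 4 (median -1.25). Angpt1, the ligand that stabilises vessels through Tek, fell from 1465 and 1552 to 33.5, 16.3, 42.2, 30.4, 31.8 and 43.6 in tumors 1 to 6, and Hgf, hepatocyte growth factor, from 559 and 558 to between 14.4 and 21.5 (median 16.9). Sema3c, a secreted guidance ligand, went from 1204 and 1166 to between 43.6 and 141 (median 78.0). Every tumor was below the cells for all 3. Fgf1, a fibroblast growth factor, rose from 4.07 and 4.11 to between 316 and 539 (median 398), and Apln, the peptide apelin of growing vessels, from 115 and 107 to between 799.6 and 3712 (median 1033), with tumor 6 highest.

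The direction of the oxidative phosphorylation genes depended on length centring. Of 30 genes of the respiratory chain, 22 were higher and 4 lower as deposited (median 0.67; 2 lower without cell library 1 or 2), but after length centring 10 were higher and 11 lower (median 0.06). Cox6b1, a subunit of complex IV, went from 3226 and 3281 to between 5342 and 10258 (median 8839), a log2 difference of 1.35 as deposited and 0.20 after length centring. Ndufs1, a subunit of complex I, was lower either way, from 3070.5 and 3032 to between 1355 and 1879 (median 1459.97), with log2 differences of -1.03 and -1.15, as was Ppargc1a, which drives mitochondrial genes, from 16.8 and 25.5 to between 3.04 and 7.22 (median 6.03). The log2 difference of Ppargc1a went from -1.73 to -0.94 after length centring (adjusted p = 0.049), and the call was lost when a replicate block was added to the centring (adjusted p = 0.12).

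Mitosis genes fell. Of 30, 27 were lower and none higher, against 34.2% of all genes (median log2 difference -1.55, and -1.40 after length centring with 25 lower). Ect2, which positions the cleavage furrow, went from 3176 and 3258 to 391, 289, 384, 244, 322 and 678 in tumors 1 to 6 (log2 difference -3.14 ± 0.32, adjusted p = 2.1e-05). Anln, a furrow scaffold, went from 12197 and 12508 to between 1398 and 3786 (median 2064), and Cenpe and Cenpf, proteins of the kinetochore, had log2 differences of -2.51 and -2.48. All 6 tumors lay below both cell libraries. Mki67, the proliferation antigen Ki-67, chosen after its values were seen, went from 21037 and 22283 to 5591, 4504, 5189, 3444, 6109.8 and 8103, lowest in tumor 4 and highest in tumor 6. The 3 mitosis genes that did not pass were Cdk1, Cenpa and Ube2c, with log2 differences of -0.29, -0.08 and -0.04 (adjusted p = 0.056, 0.67 and 0.70). Without tumor 6 Cdk1 passed (log2 difference -0.30, adjusted p = 0.043), and 28 of the 30 were lower. In the same tumors the summed markers of macrophages, leukocytes and endothelium were higher in all 6. They were 346985 to 491110.0 for macrophages, against 584 and 577 in the cells, 69648 to 82219.9 for leukocytes in general, against 3840.4 and 3884, and 32188 to 50807 for endothelium, against 4727 and 4498. Their part in the falls of mitosis genes, and of the replication, lipid, matrix and mesenchyme lists below, was not tested.

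DNA replication genes fell less uniformly, with 18 of 30 lower and 4 higher (median -0.50; 2 without cell library 1 and 1 without cell library 2 higher, and 1 higher after length centring). Ccne2, a cyclin of the S phase entry, went from 720.3 and 713 to between 59.5 and 234 (median 91.8), and Mcm4, part of the replicative helicase, from 4972 and 4945 to between 1385 and 2449 (median 1721). Pola1, the catalytic subunit of the polymerase that starts DNA strands, and Rrm1, a ribonucleotide reductase subunit, had log2 differences of -2.13 and -1.99. Gins1 and Gins2, other parts of the helicase, were higher, 406 to 556 (median 475) and 1022 to 1324 (median 1282) against 347 and 354 and 926 and 885. The log2 difference of Gins1 went from 0.45 to -0.37 after length centring (adjusted p = 0.062). Its call was lost without cell library 1 or 2 (adjusted p = 0.10 and 0.087) and that of Gins2 without cell library 2 (0.079), and both were lost under total scaling (0.17 and 0.13). An E2F core, TTTCCCGC or TTTGGCGC on either strand, was found in the windows of 8 of 25 replication genes (32%) and of 0 of 26 mitosis genes, against 3.11% of tested genes.

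Inhibitors of the cell cycle and p53 targets were higher for 11 of 23 and lower for 5, or 14 and 6 without tumor 6. Cdkn2a, the locus of p16 and p19Arf, was at 1.16 and 0 in the cells and 81.1, 100.4, 97.9, 74.9, 109.7 and 33.3 in tumors 1 to 6, and the adjacent Cdkn2b, p15, at 2.89 and 0 and 46.9, 49.7, 53, 62.7, 77.9 and 59.6. All 6 tumors lay above the cells for both. Wild-type cells held means of 0.722 for Cdkn2a and 8.45 for Cdkn2b, and H3.1K36M cells 9.07 and 5.32. Mtap, their neighbour, went the other way, from 14908 and 15558 to between 7844 and 12816 (median 9366; log2 difference -0.67 ± 0.16, adjusted p = 0.0041). Pmaip1, the cell death inducer Noxa, went from 0.578 and 0.959 to between 96.1 and 214 (median 136), and Cdkn1c, p57, from 3.47 and 0.949 to between 33.5 and 86.6 (median 59.1). Trp53inp1, a p53 target, fell from 2113 and 2258 to between 291 and 748 (median 374), and Plk2, a stress kinase, from 3961 and 3970.5 to between 710.02 and 1065 (median 831).

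Genes of sterol and fatty acid synthesis fell. No gene of cholesterol synthesis and uptake was higher and 19 of 23 were lower (median -1.78), with 21 of 22 lower after length centring. Insig1, which holds the SREBP factors in check and is one of their targets, went from 8105 and 8071 to 1214, 952, 1520.2, 1096, 1302 and 1171 in tumors 1 to 6 (log2 difference -2.76 ± 0.16, adjusted p = 3.8e-07). Idi1, an enzyme of isoprenoid synthesis, went from 6276 and 6874 to between 694 and 1446 (median 937), and Stard4, a sterol carrier, from 2305 and 2354 to between 99.2 and 287 (median 141). No tumor reached the cells for any of these. Fatty acid synthesis genes fell in 10 of 12 cases and rose in none (median -1.96), with 1 higher without tumor 6. After length centring 10 were lower and 1 higher (median -1.18). Scd2, a desaturase, went from 38131 and 38693 to between 5332 and 13206 (median 6345), and Me1, the malic enzyme that supplies NADPH, Fads2, a desaturase of polyunsaturated fat, and Acaca, the first committed enzyme, had log2 differences of -3.22, -3.04 and -2.21.

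Genes of the ATF4 response to amino acid shortage and of the unfolded protein response were lower for 16 of 29 and higher for 6 (median -0.67). The falls included Psat1, an enzyme of serine synthesis, from 20682 and 20533 to between 2418 and 4585 (median 3694), Pycr1 of proline synthesis, from 1407 and 1356 to between 167 and 276 (median 221), and Chac1, which degrades glutathione, from 1325 and 1276 to between 175 and 295 (median 233). Vldlr, a lipoprotein receptor, had the largest fall, from 2644 and 2599 to between 31.8 and 158 (median 64.2). Sdf2l1 and Manf, proteins of the endoplasmic reticulum, rose from 795 and 719.6 to between 3065 and 3980.3 (median 3161) and from 3024 and 3022 to between 5725 and 8140.1 (median 6957).

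Matrix genes changed in both directions. Of 19 collagens, 7 were higher and 8 lower, and after length centring 10 and 7. Col1a1 and Col1a2, the chains of type I collagen, fell from 355824 and 314927 to between 65865 and 88626 (median 68427) and from 166558 and 161085 to between 33488 and 47821 (median 39655); they were chosen after their values were seen. Col12a1, a collagen of the fibril surface, went from 25310.3 and 25844 to between 509 and 1268 (median 575) and Col8a2 from 1227 and 1279.6 to between 11.1 and 211 (median 46.0). Col15a1 and Col18a1, collagens of basement membranes, went from 101 and 95.9 to between 981 and 2088 (median 1628) and from 2761 and 2637 to between 26759 and 47019 (median 35413), all 6 tumors above the cells.

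Other matrix proteins were higher for 9 of 28 and lower for 13, and after length centring higher for 12 and lower for 7. Eln, elastin, went from 80.1 and 102 to 19760.0, 13200.4, 9229.7, 15086, 17408 and 16686 in tumors 1 to 6 (log2 difference 7.34 ± 0.25, adjusted p = 1.2e-08), while Lox, which crosslinks it, fell. Lum, a proteoglycan that binds collagen, went from 15.6 and 21.8 to between 1664 and 2927 (median 2182), and Spon1, a secreted adhesion protein, from 17.3 and 10.4 to between 1216 and 3141 (median 2067). Ogn, a proteoglycan of the same family as Lum, went the opposite way, from 12828 and 14035 to between 56.7 and 529.9 (median 191). Proteases of the matrix and their inhibitors were higher for 15 of 26 and lower for 5. Mmp12, the macrophage elastase, was listed at 0 in the cells and at 324 to 624 (median 449) in the tumors. Mmp3, stromelysin, went from 13.9 and 23.8 to between 508 and 3234 (median 1592), Mmp10, a related stromelysin, from 0 and 0.921 to between 133 and 1773 (median 453) and Mmp13, a collagenase, from 4.62 and 3.80 to between 101 and 654 (median 168). Mmp16, a protease of the cell membrane, fell from 1566 and 1626 to between 37.5 and 50.5 (median 40.8), and Adamts5, an aggrecanase, from 7113 and 7057 to between 440.3 and 806 (median 589). Macrophage markers rose in the same tumors, and their part in the protease genes was not tested.

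Cartilage genes did not move as 1 group, with 7 of 20 higher and 8 lower, 4 and 4 without cell library 1, and 4 and 3 without cell library 2. After length centring 5 of 19 were higher and 4 lower. Col2a1, type II collagen of cartilage, went from 8839.9 and 8265 to 225, 284, 216, 174, 127 and 129.6 in tumors 1 to 6, and Col11a1, its partner in the fibril, from 3638 and 3894 to between 14.2 and 84.9 (median 30.3). Col10a1, the collagen of hypertrophic cartilage, rose from 31.2 and 19.9 to 737, 239, 302, 297, 312 and 290.2, highest in tumor 1, and Cilp, a cartilage matrix protein, from 6.36 and 5.70 to between 939 and 2148 (median 1076). Bone genes were higher for 7 of 16 and lower for 5, and for 5 and 9 after quantile normalisation. Ifitm5, which marks osteoblasts, went from 9.25 and 13.3 to between 68.8 and 145 (median 103) and Enpp1, which makes pyrophosphate, from 232 and 264 to between 1401 and 2390.1 (median 1674). Tnfrsf11b, osteoprotegerin, fell from 161 and 169 to between 17.7 and 29.8 (median 20.7), and Dlx5, a factor of bone formation, from 74.6 and 80.2 to between 6.07 and 25.2 (median 11.2).

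Of 6 tendon genes 5 were lower and 1 higher, among them Mkx, a factor of tendon fate, from 429 and 402 to between 34.2 and 49.3 (median 41.7); Thbs4, a tendon matrix protein, was higher, from 4.05 and 3.80 to between 22.1 and 158 (median 41.4). Smooth muscle and contractile genes fell in 6 of 14 cases and rose in 3. Acta2, smooth muscle actin, went from 17983 and 16842 to 665, 796, 1036, 712, 1181 and 1066 in tumors 1 to 6, and Cald1, which regulates actin and myosin, from 30926 and 32427 to between 2679 and 6019.9 (median 3149.7), while Myh11, smooth muscle myosin, rose from 21.5 and 22.1 to between 100.2 and 424 (median 219.6). Targets of YAP and TAZ, the factors that respond to cell tension and density, were lower for 11 of 14 and higher for 1 (median -1.45), or lower for 8 of 12 after length centring (median -0.86). F3, tissue factor, went from 3597 and 3937 to between 145 and 240.04 (median 190.1), and Amotl2 and Crim1, further YAP targets, from 6107 and 5823 to between 364 and 1186 (median 484) and from 4177 and 3856 to between 341 and 831 (median 398), with tumor 6 highest for both.

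Transcription factors of limb and mesenchyme were lower for 16 of 29 and higher for 5 (median -0.84). Prrx1, a marker of limb mesenchyme, fell from 26964 and 28099.5 to between 4886 and 7183 (median 5370.1). Foxd1, a factor of stromal progenitors, fell from 2699 and 2366 to between 342 and 416 (median 365) and Msx2, a factor of limb and skull, from 71.6 and 48.5 to between 0 and 7.39 (median 5.59), while Msx1, a factor of limb outgrowth, rose from 185 and 189.9 to between 437 and 680.4 (median 506) and Tbx2, another limb factor, from 15.0 and 13.3 to between 135 and 451 (median 234). Hox genes, which set position along the body, were higher for 10 of 27 tested and lower for 4 as deposited (2 without cell library 1), for 7 and 10 after quantile normalisation, and for 10 and 7 after length centring. Hoxd8, Hoxd9 and Hoxd4 of the D cluster went from 0 and 0.949, from 1.16 and 1.90 and from 0.578 and 3.78 to between 26.3 and 45.9 (median 38.0), 56.9 to 155 (median 97.6) and 42.5 to 77.8 (median 56.4). Hoxb9 fell from 712 and 655 to between 46.5 and 99.8 (median 54.0).

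Wnt genes changed on both sides of the pathway, in which secreted ligands act on receptors, R-spondins raise receptor levels and antagonists bind ligand or receptor. Ligands and antagonists were higher for 10 of 21 and lower for 5 (2 without cell library 1 and 3 without cell library 2). Wnt7b, a ligand, went from 74.6 and 67.4 to 8814, 8221, 7468, 8262, 5874 and 10379 in tumors 1 to 6 (log2 difference 6.81 ± 0.18, adjusted p = 2.0e-09). The antagonists Dkk2 and Sfrp2 rose from 2.31 and 0.997 to between 217 and 905 (median 485) and from 9.82 and 16.1 to between 669.7 and 3689 (median 1812), while the R-spondins Rspo2 and Rspo3 fell from 1375 and 1354 to between 0 and 6.80 (median 2.84) and from 436 and 452 to between 4.05 and 49.3 (median 10.2). Targets and feedback genes were higher for 7 of 12 and lower for 3. Axin2, a feedback inhibitor, went from 128 and 104 to between 955 and 1510.4 (median 1082), Nkd2, another feedback inhibitor, from 149 and 167 to between 756 and 1985 (median 1052), and Tcf7, a factor of the pathway, from 83.8 and 90.2 to between 805 and 1061 (median 1007), whereas its relative Lef1 went from 106 and 122 to between 10.8 and 39.0 (median 13.9) and Lgr5, the receptor of R-spondins, from 152 and 138 to between 14.0 and 46.5 (median 19.9).

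Of 27 BMP and TGF-beta genes 10 rose and 10 fell (median 0.12), and after length centring 14 and 10 (median 0.89). Grem1, a BMP antagonist, fell from 5317 and 5419 to 71.7, 82.3, 93.8, 97.1, 28.9 and 57.3 in tumors 1 to 6, and Smad9, a BMP signal carrier, from 382 and 375 to between 3.50 and 11.9 (median 11.5). The ligands Bmp2 and Bmp7 stood at 41.3 to 99.3 (median 71.2) and 76.2 to 307 (median 144) in the tumors, against 0 and a mean of 2.00 in the cells. Of 13 IGF genes 4 were higher and 4 lower, or 6 and 5 after length centring. Igfbp3, a carrier that binds IGF, went from 90.7 and 93.0 to 9962, 9503, 9160.1, 11032, 6177 and 6996 and Igf1 from 89.0 and 113 to between 837 and 1607 (median 1000.5), while the receptor Igf1r fell from 7798 and 7780.01 to between 1471 and 2664 (median 1688). Immediate early genes, which respond within minutes to growth factors or handling, were higher for 14 of 20 and lower for 4 (median 1.52). Fosb, a Fos family factor, went from 21.4 and 21.8 to between 211 and 524 (median 310.3), Atf3, a stress factor, from 110.4 and 103 to between 657 and 1299 (median 1035) and Fosl1, another Fos family factor, from 606 and 514 to between 2579.7 and 5967 (median 5324), while Egr3, an early growth response factor, fell from 86.7 and 67.4 to between 4.33 and 24.1 (median 15.7) and Klf4, a zinc finger factor, from 4991 and 4879.8 to between 1823 and 2772 (median 2251).

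**Figure D4:**
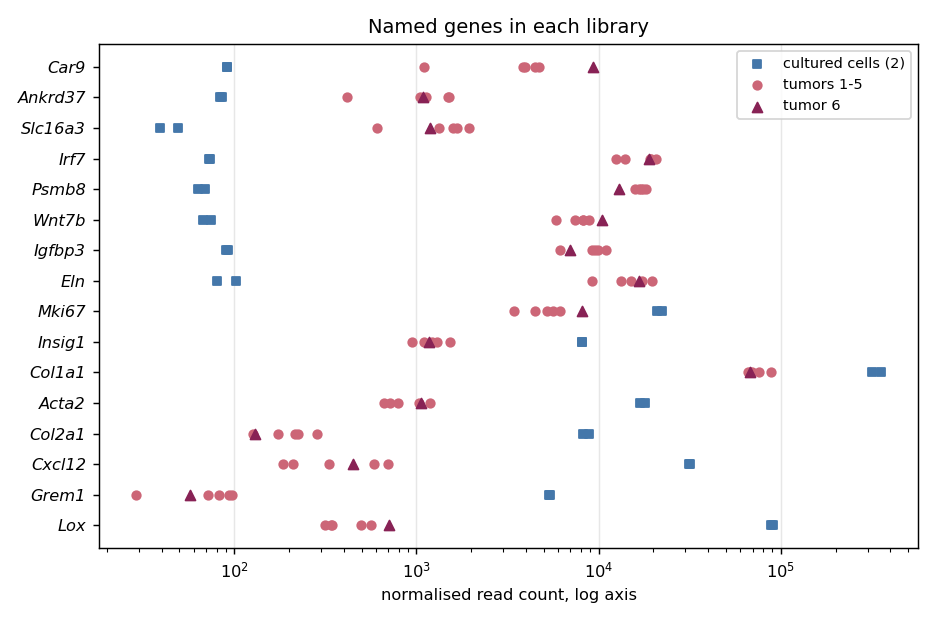
Normalised read count (x axis, log scale) of 16 named genes in the 2 cell libraries (squares), tumors 1 to 5 (circles) and tumor 6 (triangle). Genes from Car9 to Eln have all tumors to the right of the cells and genes from Mki67 to Lox all tumors to the left, with Lox at 90774 and 88803 in the cells and at most 709 in a tumor.

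The genes of histone H3.3 itself were compared with those of its chaperones. The deposited values do not separate the tagged transgene from H3f3a and H3f3b, the mouse genes of H3.3, and both have near copies in the genome. H3f3a was at 12752 and 13498 in the cells and 12346 to 14493 (median 13922) in the tumors and did not pass (log2 difference 0.07 ± 0.09, adjusted p = 0.50), and H3f3b rose from 26665 and 27826 to between 42024 and 49923 (median 46159.7), a call that was lost after quantile normalisation (adjusted p = 0.079). Of 10 H3.3 genes and chaperones 3 were higher and 4 lower, or 2 lower without cell library 1 or 2. After length centring 4 were higher and 3 lower. Daxx and Atrx, which form 1 chaperone complex for H3.3, went in opposite directions, Daxx from 1082 and 1093 to between 2098 and 2613 (median 2378) and Atrx from 5968 and 6407 to between 1569 and 2464 (median 1941). Their log2 differences were 1.10 and -1.70, and 0.97 and -0.58 after length centring.

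H3K36 methyltransferases, demethylases and readers were lower for 13 of 23 and higher for 5 as deposited, and after length centring 8 of 21 were higher and 6 lower, so that no direction holds for the list. Nsd1, Whsc1 and Setd2, the methyltransferases that write the mark, went from 5830.1 and 6171 to between 3135 and 4348 (median 3583), from 5704 and 5740.2 to between 2777 and 4398 (median 3276) and from 4011 and 4186 to between 1374 and 2232 (median 1635). The log2 difference of Nsd1 turned from -0.71 to 0.54 after length centring, and that of Setd2 went from -1.29 to -0.20, where it did not pass (adjusted p = 0.064); Whsc1 had no matched length. Psip1, a reader of the mark, fell by both measures, from 5744 and 6264 to between 1146 and 2255 (median 1362) with log2 differences of -2.07 and -2.12, as did the demethylase Kdm4c (-1.99 and -1.74). Phf1, another reader, rose by both, from 1218 and 1127 to between 2571 and 5444 (median 3902), with 1.70 and 1.63.

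Of 20 Polycomb genes 8 fell and 4 rose as deposited, 11 fell and 6 rose without tumor 6, and 7 fell and 6 rose after length centring. Suz12, a core subunit of the complex that methylates lysine 27, went from 3259.9 and 3506 to between 742 and 1275 (median 861; log2 difference -1.93 ± 0.19), while Phc2, a subunit of the other Polycomb complex, rose from 2945 and 2809 to between 8741 and 11446 (median 10759; log2 difference 1.86 ± 0.12). Of 18 imprinted genes 9 fell and 3 rose (median -0.97). Peg3 and Plagl1, expressed from the paternal copy, fell from 847 and 858 to between 22.3 and 226 (median 51.3) and from 1338 and 1411 to between 54.6 and 151 (median 102), and Mest, also a paternally expressed gene, rose from 76.9 and 75.0 to between 291 and 522 (median 476). Replication-dependent histone genes are short and have near-identical copies, so their single values are uncertain, and their direction depends on the processing: 5 higher and 4 lower of 24 as deposited (2 higher without cell library 2), 2 and 12 after length centring, 3 and 11 after quantile normalisation. Hist1h3b was lower by all of these, from 4778 and 4869.6 to between 73.6 and 247 (median 116). Ribosomal protein genes, whose transcripts are short, were higher for all 40 as deposited (median 1.2) and for 23, with 4 lower, after length centring (median 0.41).

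**Figure D5:**
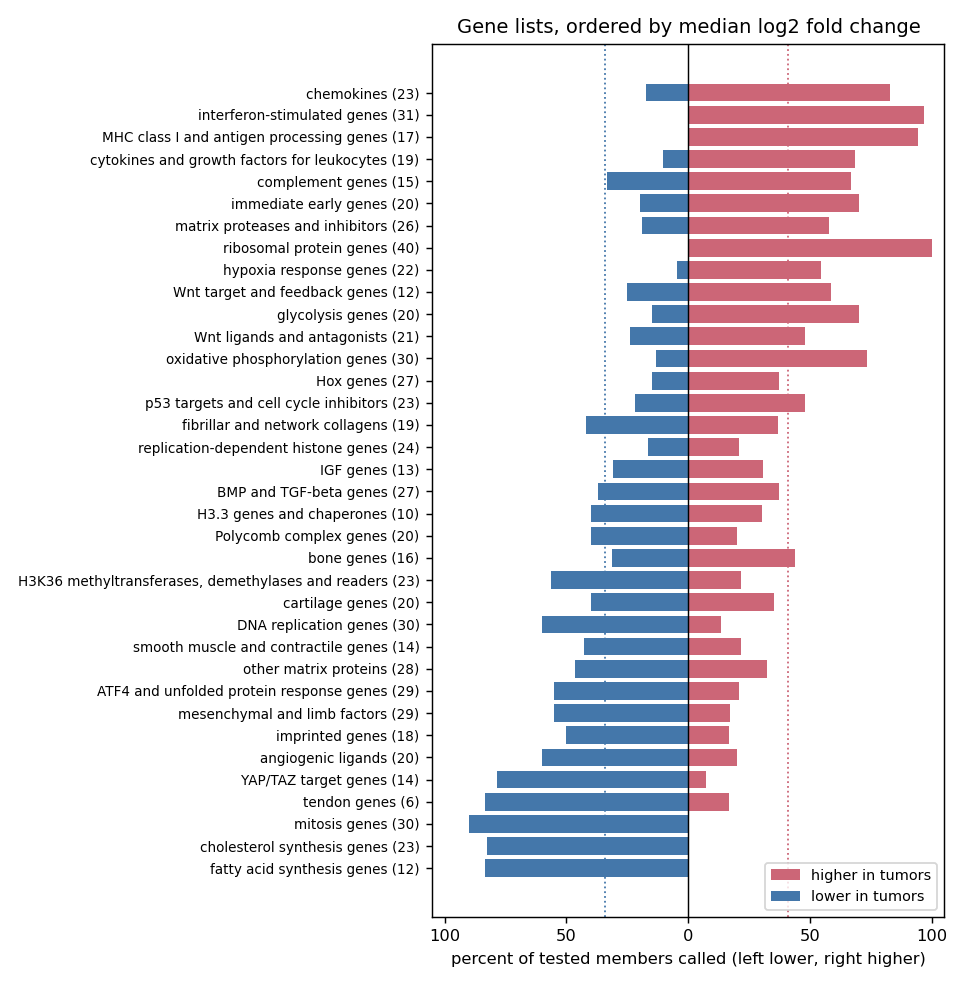
Percent of the tested members of each of 36 gene lists (number tested in brackets) that passed an adjusted p of 0.05 as higher in tumors (right) or lower (left), ordered by the median log2 difference of the list. Dotted lines mark the 41% higher and 34.2% lower among all genes tested; chemokines and interferon-stimulated genes stand at the top, and cholesterol and fatty acid synthesis genes at the bottom. The direction of the oxidative phosphorylation, collagen, other matrix, cartilage, bone, Hox, H3K36, H3.3 and histone lists turned in at least 1 alternative.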

How the data were processed

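RNA of 12 libraries in 1 table was used: 6 H3.3K36M tumors, 2 H3.3K36M cell libraries, and 2 each of wild-type H3.3 and H3.1K36M cells as culture levels. The submitters' processing notes name Bowtie 1.0.0, RSEM 1.2.12 and the mm9 build. The deposited values are a signal per gene, estimated read counts that the authors divided by 1 factor per library (median normalisation, from the table's name). Of the values under 20 reads, 76.7% to 78.0% in cells and 84.1% to 86.1% in tumors were within 0.01 of a whole number of reads, so read counts were not recovered and no count model was used. Whether the libraries kept strand is not given in the sources used here, so overlapping and antisense genes cannot be told apart.

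Genes with a value of 10 or more in at least 2 of the 8 libraries were compared on log2(value + 1) with limma 3.58.1 (R 4.3.3; trended, robust moderation; Benjamini-Hochberg over all genes tested; threshold 0.05, two-sided). The method was tested on simulated data with few changed genes and the same spread in both groups. Because 75.2% of genes were called here, that test cannot give the error rate of these results. The transcript length of a gene was that of its longest annotated transcript in GENCODE, matched by gene symbol. Promoter windows came from RefSeq (GRCm38.p6). Of the 54 lists, the 1 of sex chromosome transcripts had no tested member. The members and lists were chosen with earlier results of these data known. Named genes are drawn from the 12 largest differences without overlap in each direction (group mean 200 or more), up to 4 called members of each list plus up to 2 in its lesser direction, the first 2 detected markers of each other cell type, undetected markers, and a fixed set of H3.3, H3K36 and Cdkn2 genes. Outside that rule, after their values were seen, Mki67, Cdk1, Cenpa, Ube2c, Ifit2, Itga2b, Mpo, Col1a1, Col1a2, Slc2a1, Vegfa and Wap were added. List genes whose symbols were not matched, Xist among them, were not analysed here, and a few named by the rule are not reported here. No pair of libraries agreed within sampling noise. Alternatives covered the pseudocount, the filter, the scaling, the moderation, a replicate block, all 12 libraries, length centring (chosen after seeing the data) and each library left out.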

Additional observations from a re-analysis of the deposited data

Results flagged for a closer look

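Among the 6 tumors, 53 of 248 named genes had 1 tumor far from the other 5, with a gap to its neighbour, as a share of the whole range, above Dixon's 95% critical value for 6 samples, and 40 of these were in tumor 6. For normally distributed values chance alone gives about 1 in 20. The values were not log-transformed and the genes were selected. Genes of 1 tumor are also not independent, so these counts are not compared with that rate. Among listed genes of leukocytes and inflammation, those in which tumor 6 stood apart as the highest had normalised read counts there of C1s at 2418, Cd79a at 863, Emr1 at 7589, Gzmb at 3827, Ifit2 at 2176, Il1b at 2043, Osm at 279.8, Prf1 at 2984 and Ptprc at 5592. The summed macrophage markers were lowest in tumor 6, at 346985 against up to 491110.0, and the summed leukocyte markers there lay inside the range of the other tumors. For genes of vessels and pericytes it held Apln at 3712, Cdh5 at 22894 and Rgs5 at 279. For genes of muscle and contractile cells it held Acta1 at 6745, Cald1 at 6019.9, Ckm at 3705 and Myh4 at 3934. For genes of the cell cycle it held Ccne2 at 234, Ect2 at 678, Mcm4 at 2449 and Trp53inp1 at 748. Other genes highest in tumor 6 were Aldoc at 349, Amotl2 at 1186, Col11a1 at 84.9, Crim1 at 831, Hoxb9 at 99.8, Igf1r at 2664, Igf2bp3 at 815, Kdm4c at 608, Ndufs1 at 1879 and Ogn at 529.9. They also included Peg3 at 226, Prrx1 at 7183, Psip1 at 2255, Rspo3 at 49.3, Scd2 at 13206, Stard4 at 287, Suz12 at 1275, Vldlr at 158 and Whsc1 at 4398. Tumor 6 was lowest for Coro1a at 12425.

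Tumor 1 was highest for Apob at 2.01, Col10a1 at 737, S100a8 at 310.4 and S100a9 at 308. Tumor 2 was lowest for Smad9 at 3.50. Tumor 3 was highest for Cxcl5 at 29.9. Tumor 4 was highest for Ms4a7 at 8342 and Sdf2l1 at 3980.3. Tumor 5 was highest for Csn1s1 at 5004, Lgr5 at 46.5, Trf at 12081 and Wap at 2829. Tumor 5 was lowest for Slc2a1 at 4344.

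Of the 53 summed lists 10 had 1 tumor that stood apart in the same way, 7 of them in tumor 6. In tumor 6 the summed normalised read count was highest for H3K36 methyltransferases, demethylases and readers at 64554, NK cell markers at 11588, YAP/TAZ target genes at 31184, skeletal muscle genes at 37048 and smooth muscle and contractile genes at 71109.7. In tumor 6 the summed normalised read count was lowest for oxidative phosphorylation genes at 208843 and pericyte markers at 24418. In tumor 5 the summed normalised read count was highest for mammary epithelial and milk genes at 38466. In tumor 4 the summed normalised read count was highest for replication-dependent histone genes at 17766. In tumor 4 the summed normalised read count was lowest for DNA replication genes at 51252. The labels give no mouse or dissection site for any tumor. The length trend was least steep in tumor 6, from 0.676 in the shortest 10% of genes to -0.71 in the longest. Its part in the genes and lists flagged in tumor 6 was not tested.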

How the results depend on the processing

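The counts of genes higher and lower in tumors stayed within 1.5 times of the main counts in all 19 alternatives. With a filter of 10 or more in all 8 libraries, 2467 genes were at least 2-fold higher instead of 3930, because the genes absent from 1 group are no longer tested, and the count of genes near 0 in culture could not be given. Leaving out 1 library at a time gave 4991 to 6509 genes higher, 3877 to 5570 lower, 3574 to 4131 at least 2-fold higher, 2535 to 3262 at least 2-fold lower and 937 to 1175 near 0 in all cultured lines, with the lowest of each when a cell library was left out and the other was assumed to vary like the tumors. Quantile normalisation kept 9975 of the calls (89.4%) and turned 1, with 43.1% of the at least 2-fold differences higher against 56.2%. Length centring kept 8134 of the 10102 calls with a matched length (80.5%) and turned 263. It reversed Nsd1 (0.54, and 0.60 with the replicate block), Cspg4 (0.33 and 0.49), Gins1 (-0.37 and -0.44) and Pfkp (0.42 and 0.50); the cause was not tested. Over 248 named genes, 4510 of 4584 values kept their side of the threshold, 46 lost the call, 20 gained one and 8 reversed. Direction was compared only for genes called in the main fit. A change of sign in the other genes was not counted, as for Acta1, at 1.27 in the main fit and as low as -0.43. Of 53 lists with tested members, the direction held by more of the called members turned in at least 1 alternative for 9. It turned in none for 42, and 2 had equal counts in the main fit. A majority that was lost to equal counts was not counted as a turn. With the filter of 10 or more in all 8 libraries, T cell and mast cell markers each had 1 member higher and 1 lower. Pericyte markers then had 3 and 3, and platelet genes 0 and 0.

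Replicate numbers 1 and 2 occur in both groups, but the labels do not say that they pair samples. For that reason the numbers were not treated as pairs. The deviations of cell library 1 correlated with those of tumor 1 at 0.22 and of tumor 2 at 0.28 over 9794 genes. With 2 cell libraries, the deviations of cell library 2 are the same with opposite sign, so its correlations were -0.22 and -0.28. With the number as a replicate block 6761 genes were higher and 5676 lower, and with length centring and the block 5960 and 4729. The comparison rests on 2 cell libraries, and at 24659432 reads or more per library a gene listed at 0 may still be expressed below about 3 normalised reads.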

Other observations

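Further genes named by the rule extend the host cell types described above. Cd36 and Fabp4, which carry fatty acids in fat cells, vessels and macrophages, were at 4.62 and 1.90 and 16.2 and 20.9 in the cells and at 346 to 877 (median 525) and 579.98 to 3384 (median 1114) in the tumors. Gzma, another granzyme of NK cells, was listed at 0 in both cell libraries and at 704, 1117, 396, 395, 1061 and 1151 in tumors 1 to 6. Csf3r, the receptor for the growth factor of neutrophils, went from 7.85 and 5.95 to between 1089 and 1459.9 (median 1291). Mmp8, a neutrophil collagenase, stood at 0.578 and 0 in the cells and 9.18 to 13.2 (median 11.2) in the tumors.

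Among the IGF, Hox and chromatin genes, Igfbp6, a carrier that prefers Igf2, rose from 147 and 143 to between 1443 and 1843 (median 1642), while Igf2bp3, an RNA-binding protein of embryonic tissue, fell from 1107 and 1163 to between 218 and 815 (median 288). Hoxb2 rose from 0 and 0.949 to between 19.2 and 54.8 (median 30.6). Bmi1, a subunit of the Polycomb complex that marks histone H2A, fell from 3392 and 3416 to between 1051 and 1571 (median 1283), and Dek, a histone chaperone, from 7245 and 7932 to between 3919.98 and 4839.6 (median 4404).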
